A study of Mus musculus with 18 samples.

Results

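The major histocompatibility complex (MHC) class I presentation genes were followed in microglia and macrophages sorted from contused mouse spinal cord. The members were picked by symbol from a list of 10 genes (H2-K1, H2-D1, B2m, Tap1, Tap2, Tapbp, Psmb8, Psmb9, Nlrc5 and Erap1), and all 10 were found among the 53465 annotated genes of the deposited table. Adult female C57BL/6J mice, aged 8 to 10 weeks, received PBS, 100 ng of recombinant IL-13 (rIL-13) or 100 ng of recombinant IL-4 (rIL-4) into the cord 48 h after the injury. The cells were sorted 24 h later, microglia as CD45 low, CD11b+, F4/80+ cells and macrophages as CD45 high, CD11b+, F4/80+ cells. Every one of the 9 mice gave 1 microglia and 1 macrophage library, so that each of the 6 groups had 3 libraries: mice 1, 2 and 3 received PBS, mice 5, 6 and 7 rIL-13, and mice 8, 9 and 10 rIL-4. All mice were injured, and uninjured cord is not analysed here.

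MHC class I molecules show short peptides from the inside of a cell to CD8 T cells. The proteasome cuts proteins into peptides, and in cells exposed to interferon its catalytic subunits are partly exchanged for the immunoproteasome subunits encoded by Psmb8, Psmb9 and Psmb10. The transporter formed by Tap1 and Tap2 moves the peptides into the endoplasmic reticulum, where the aminopeptidase Erap1 trims them and tapasin (Tapbp) helps to load them onto a heavy chain bound to beta-2-microglobulin (B2m). H2-K1 and H2-D1 encode the classical heavy chains of this strain. Nlrc5 encodes a transcriptional coactivator of class I genes, which acts at their promoters together with factors that bind to X and Y boxes. In the healthy cord, microglia show little class I, and injury and interferon are known to raise it.

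The libraries held between 35961305 and 45849829 counts. Levels are given as CPM, a gene's counts relative to the library size as edgeR computes it, with libraries scaled by TMM factors over all 18 libraries, and log2 fold changes (log2FC) come from edgeR. The sorted cells were checked against marker lists. The 8 microglia markers summed to between 6186 and 10538 CPM in PBS microglia and to between 2429.6 and 3434 CPM in PBS macrophages, and all 8 of them were detected in both cell types. In microglia the same sum was 3587 to 6978 CPM with rIL-13, overlapping with PBS, and 2756 to 4370 CPM with rIL-4, below all PBS libraries. In macrophages it was 1017 to 2158 CPM with rIL-13 and 448 to 817 CPM with rIL-4, both below all PBS libraries. Ccr2, a chemokine receptor of blood monocytes, was between 156 and 553 CPM in the 9 macrophage libraries and between 10.3 and 63.1 CPM in the 9 microglia libraries. The summed level of the 7 markers of macrophages from blood, of which Ccr2 is 1, did not separate the cell types across treatments. It was 170 to 481 CPM in PBS microglia, 4872 to 7119 CPM with rIL-13 and 11761 to 21076 CPM with rIL-4, and in macrophages 2860 to 5677, 58261 to 76827 and 85572 to 112456 CPM. Most of this sum with a cytokine was Chil3, a gene known to be induced by IL-4, which was at 11486 to 20636 CPM in rIL-4 microglia and at 1474 to 3791 CPM in PBS macrophages. The microglia libraries also held RNA of other cells: the 5 endothelial markers summed to between 733 and 2503 CPM, against 18.2 to 427 CPM in macrophages, and the 6 fibroblast and pericyte markers to between 185 and 6936 CPM, against at most 6.91 CPM. Both sums moved with the cytokines. The endothelial sum in microglia was 733 to 1671 CPM with PBS, 1502 to 2503 CPM with rIL-13 and 1842 to 2487 CPM with rIL-4, and in macrophages 18.2 to 20.5, 126 to 217 and 196 to 427 CPM. In microglia, Cldn5, Pecam1 and Flt1 were higher in every rIL-4 library than in every PBS library, and Cdh5 and Ly6c1 overlapped. In macrophages the rise lay in Pecam1 (7.54 to 9.98 CPM with PBS and 146 to 326 CPM with rIL-4) and Flt1 (3.22 to 9.31 and 46.3 to 99.2 CPM), whereas Cldn5 (1.68 to 3.39 and 0.743 to 1.07 CPM) and Ly6c1 (0.945 to 1.61 and 0.143 to 0.522 CPM) were lower with rIL-4 and Cdh5 overlapped. The fibroblast and pericyte sum in microglia was 2017 to 3105 CPM with PBS, 1031 to 6936 CPM with rIL-13 and 185 to 1313 CPM with rIL-4. The 6 neutrophil markers were higher in macrophages, at 155 to 2718 CPM against 16.6 to 136 CPM. The 8 markers of T and NK cells summed to at most 4.25 CPM in any library, and Ncr1 was at 0 in all 18. The highest sums were 34.1 CPM for the 6 dendritic cell markers and 16.4 CPM for the 4 B cell markers. The 7 markers of neurons, astrocytes and oligodendrocytes reached 192 CPM. Of the dendritic markers in microglia, Ccr7 was at 0 with PBS and at 3.56 to 20.9 CPM with rIL-4, and the rest did not separate these groups.

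The members lie in few places of the genome. On GRCm38 (GENCODE annotation), 7 of the 10 genes are on chromosome 17, within the MHC: Tapbp (33915899 to 33929292), H2-K1 (33996017 to 34000347), Psmb9 (34181987 to 34187764), Tap1 (34187553 to 34197225), Psmb8 (34197721 to 34201454), Tap2 (34203527 to 34216321) and H2-D1 (35262730 to 35267499). B2m is on chromosome 2 (122147686 to 122153083), Nlrc5 on chromosome 8 (94434356 to 94527272) and Erap1 on chromosome 13 (74639568 to 74693201). Tap1 and Psmb9 are read from opposite strands and overlap by 212 bases. The reads carry no strand, so reads from that stretch cannot be assigned to either gene with certainty.

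The promoters are shown because the member Nlrc5 encodes a coactivator that acts at promoters of class I genes. Both cytokines given are also known to act through another factor, STAT6. The RefSeq table (GRCm38.p6) held the promoters of 8 members, each from 250 bases before to 50 after a start of transcription. The 150 bases upstream of H2-K1 (chr17:34000349-34000498, minus strand) and of B2m (chr2:122147536-122147685, plus strand) are printed 5′ to 3′, with searched motifs in capitals.
H2-K1: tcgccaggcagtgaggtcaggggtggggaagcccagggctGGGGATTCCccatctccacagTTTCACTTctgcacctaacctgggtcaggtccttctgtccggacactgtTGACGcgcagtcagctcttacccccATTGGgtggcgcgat
B2m: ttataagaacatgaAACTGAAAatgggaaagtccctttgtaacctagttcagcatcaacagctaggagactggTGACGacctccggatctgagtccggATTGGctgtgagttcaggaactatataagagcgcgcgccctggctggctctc
In H2-K1 the capitals mark, in order, an NF-kB motif (GGGGATTCC), an interferon regulatory factor (IRF) motif (AANNGAAA, here on the other strand), a CRE core (TGACG) and an inverted CCAAT box. In B2m they mark an IRF motif, a CRE core and an inverted CCAAT box in the same order, without the NF-kB motif. In H2-D1 the NF-kB and IRF motifs stand in the same spacing, as the 30-base elements of H2-K1 (chr17:34000429-34000458, minus strand) and H2-D1 (chr17:35262923-35262952, plus strand) show.
H2-K1: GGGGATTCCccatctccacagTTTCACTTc
H2-D1: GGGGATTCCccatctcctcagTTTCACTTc
The elements had 29 of 30 bases in common and differed by A18T, counted from 1 at the 5′ end with the base of H2-K1 first.

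Each motif was searched on both strands in 32851 promoters of 300 bases. The NF-kB motif was in 0.25% of them, the IRF motif in 23.9%, the CRE core in 20.8% and CCAAT in 37.4%. Among the 8 members with an entry, H2-K1 and H2-D1 held all of these motifs, B2m all but the first, Erap1 the IRF motif, Tapbp CCAAT and Psmb8 none. For Tapbp, Psmb8, Psmb9, H2-D1 and Erap1, the window lay inside the gene span given above, so the outermost annotated start was not covered. The windows of Tap1 and Psmb9 shared 275 bases on opposite strands, and each held a CRE core and CCAAT. The motif known for STAT6 (TTC and GAA separated by 4 bases, in 6.95% of promoters) was in none of the 8 windows. A match describes these letters and is not evidence of binding.

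In both cell types B2m had the highest level per length of transcript. In PBS microglia, B2m was at 1406 ± 128 CPM per kilobase (SD, n = 3), H2-D1 at 371 ± 81.1 and H2-K1 at 229.7 ± 46.9, followed by Psmb8 at 78.8 ± 1.39 and Tapbp at 68.7 ± 8.36. Psmb9 was at 26.1 ± 3.86 CPM per kilobase, Tap1 at 18.4 ± 0.197, Tap2 at 12.1 ± 0.732, Erap1 at 10.6 ± 1.09 and Nlrc5 at 0.798 ± 0.274. The ranges of Psmb8 and Tapbp overlapped, as did those of Tap2 and Erap1, and those of the other neighbours in this order did not. In PBS macrophages, B2m was at 2562 ± 858 CPM per kilobase, H2-D1 at 1050.1 ± 229 and H2-K1 at 530.4 ± 148, and Nlrc5 was again the lowest at 2.63 ± 0.364. The first 3 places, in this order, and the last place were the same in all 6 groups, without overlap to the next gene.

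**Figure D1:**
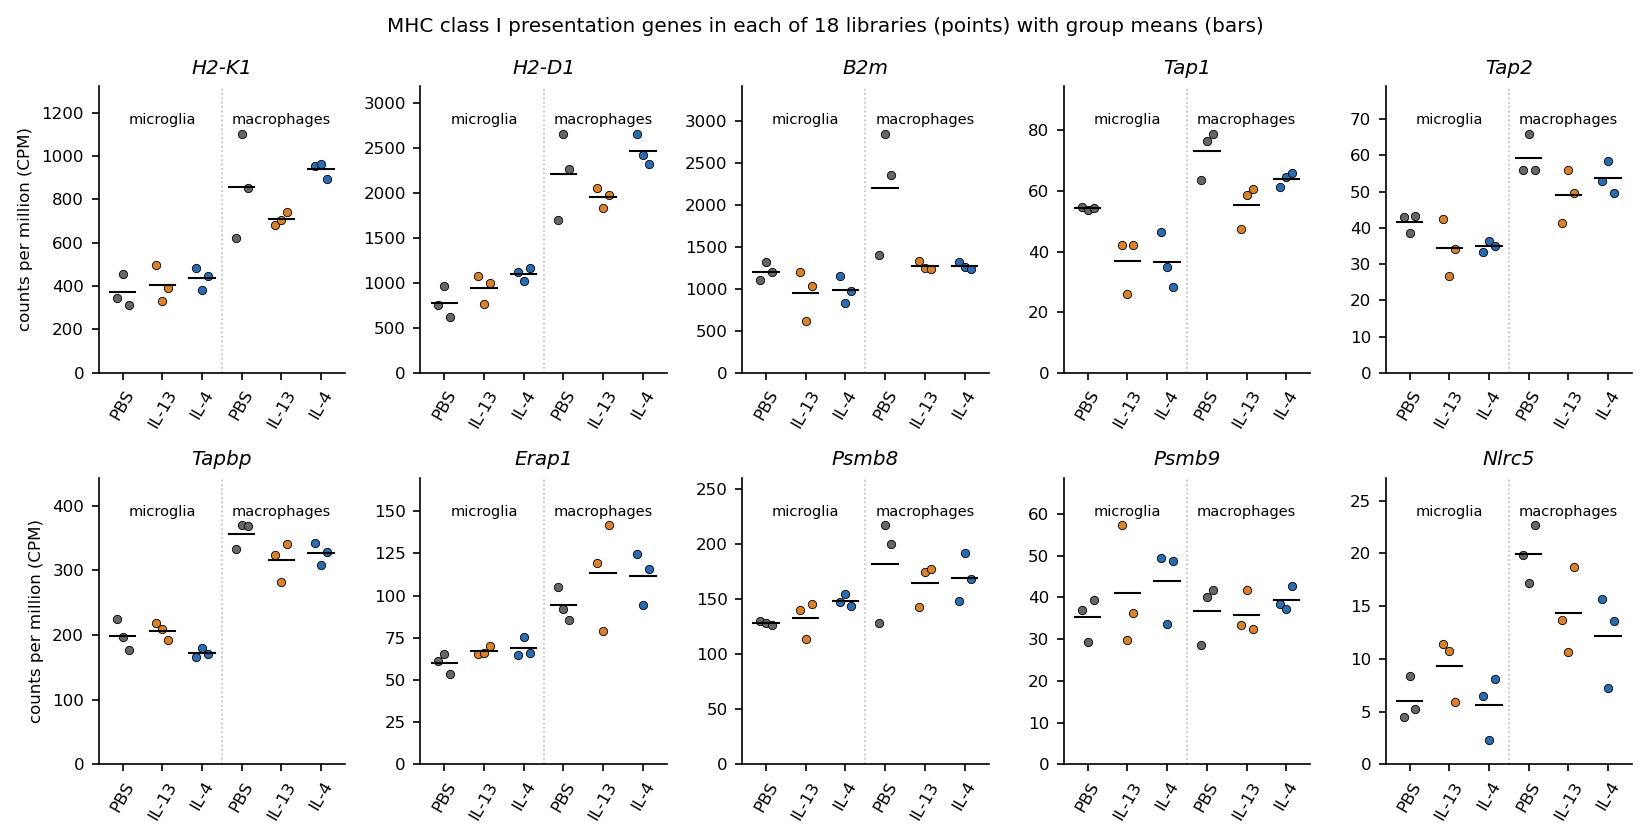
Each panel plots 1 gene, with the level in CPM on the vertical axis (linear, from 0, scaled to the gene) and the 6 groups on the horizontal axis; points are single libraries in mouse order, grey for PBS, orange for IL-13 and blue for IL-4, and bars are group means. H2-K1 and H2-D1 are higher in every macrophage library than in every microglia library, whereas B2m in macrophages lies at 1401 to 2853 CPM with PBS and at 1236 to 1335 CPM with the cytokines.

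With PBS, class I presentation genes were lower in microglia than in macrophages of the same cords. By edgeR's quasi-likelihood test, 9 of the 10 members were lower in microglia at an adjusted p under 0.05, against 16.3% of the 14715 genes tested. The median log2FC of the members was -0.78, against 0.04 over all genes tested. For 8 members, every microglia library was below every macrophage library, which held for 22.8% of all genes. The member that was not called was Psmb9, with a log2FC of -0.09 (SE 0.19, adjusted p = 0.736 by edgeR) and an interval (2 SE on either side) from -0.47 to 0.28. The endothelial, fibroblast and microglia markers given above were higher in the same microglia libraries, and the neutrophil markers in the macrophage libraries (599 to 1260 CPM against 39.4 to 83.0 CPM), and their part in these differences was not tested. In bulk libraries of sorted cells, fewer cells that make a transcript and less of it per cell cannot be told apart.

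Both heavy chains, which hold the peptide, showed the difference. H2-D1 was at 756, 962 and 624 CPM in PBS microglia and at 1699, 2657 and 2266 CPM in PBS macrophages. It was 2.89-fold lower in microglia, with a log2FC of -1.53 (SE 0.20, adjusted p = 0.000385 by edgeR). Every microglia library was below every macrophage library. H2-K1 was at 345, 458 and 313 CPM in microglia and at 624, 1102 and 851 CPM in macrophages, a log2FC of -1.24 (SE 0.21, adjusted p = 0.00179 by edgeR) without overlap. The heavy chain genes share stretches of sequence. Of the 76-base windows of the main transcript, 6.91% in H2-D1 and 1.42% in H2-K1 were also found in another gene. When the counts of 24 class I heavy chain genes were summed to a single feature, its log2FC was -1.32 (SE 0.19, adjusted p = 0.000796 by edgeR).

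B2m, the light chain shared by all class I molecules, had no window in common with another gene. It was at 1104, 1323.5 and 1200.1 CPM in PBS microglia and at 1401, 2853 and 2356 CPM in PBS macrophages. The groups did not overlap, and the log2FC was -0.89 (SE 0.22, adjusted p = 0.0116 by edgeR). PBS mouse 1 had the lowest macrophage level of B2m, H2-K1 and H2-D1 among the PBS mice.

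The transport and loading genes had smaller log2FC than the heavy chains, a difference that was not tested. Tapbp was at 225, 197 and 176 CPM in PBS microglia and at 333, 369.6 and 368 CPM in PBS macrophages (log2FC -0.88, SE 0.12, adjusted p = 0.000520 by edgeR). Tap1 was at 54.8, 53.7 and 54.5 CPM in microglia and at 63.7, 76.6 and 78.9 CPM in macrophages (log2FC -0.46, SE 0.12, adjusted p = 0.0174 by edgeR). Tap2 was at 42.9, 38.7 and 43.2 CPM in microglia and at 56.0, 65.9 and 55.9 CPM in macrophages (log2FC -0.54, SE 0.13, adjusted p = 0.0100 by edgeR). None of these groups overlapped, and the 3 PBS microglia libraries of Tap1 lay close together. Erap1 was at 61.2, 65.4 and 53.3 CPM in microglia and at 105, 92.2 and 85.3 CPM in macrophages (log2FC -0.69, SE 0.14, adjusted p = 0.00450 by edgeR). Of the windows of the transcript, 17.3% in Tapbp, 13.6% in Erap1 (shared with Cast), 8.82% in Tap2 and 4.76% in Tap1 were also found in another annotated gene.

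Of the immunoproteasome subunits, which favour peptides that fit class I, Psmb8 was at 130.4, 128 and 126 CPM in PBS microglia and at 128, 217 and 199.7 CPM in PBS macrophages. The log2FC was -0.53 (SE 0.18, adjusted p = 0.0405 by edgeR), but the groups overlapped, since the macrophages of mouse 1 were at the level of microglia. Psmb9 was at 36.9, 29.4 and 39.4 CPM in microglia and at 28.6, 40.1 and 41.7 CPM in macrophages, and 10.7% of its windows were shared with Tap1. Nlrc5, the coactivator, had the largest log2FC of the members at -1.75 (SE 0.28, adjusted p = 0.00120 by edgeR). It was at 4.45, 8.39 and 5.29 CPM in microglia and at 19.9, 17.1 and 22.7 CPM in macrophages, 3.37-fold lower in microglia. These levels rest on 182 to 389 counts per microglia library. Without PBS mouse 3, 5 of the 9 calls were left, and B2m, Tap1, Tap2 and Psmb8 lost theirs. Tap1, Tap2 and Psmb8 also lost theirs without PBS mouse 2, Tap1 with all 18 libraries in a single model (adjusted p = 0.129 by edgeR), and Psmb8 under a filter of 10 or more counts per library (adjusted p = 0.0645 by edgeR).

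With rIL-13, 3 members were lower in microglia by edgeR, against 9.46% of the 13906 genes tested, and 6 members did not overlap in this direction, against 20.4%. With rIL-4, 6 members were called lower, against 9.97% of the 13576 genes tested, and 7 did not overlap, against 21.5%. The median log2FC was -0.59 with rIL-13 and -0.73 with rIL-4. H2-K1, H2-D1 and Tapbp were called with every treatment. H2-D1 was at 1080.1, 770.2 and 995 CPM in rIL-13 microglia and at 2052, 1836 and 1976 CPM in rIL-13 macrophages (log2FC -1.03, SE 0.18, adjusted p = 0.00596 by edgeR). It was at 1123, 1024 and 1163 CPM in rIL-4 microglia and at 2659, 2427 and 2322 CPM in rIL-4 macrophages (log2FC -1.14, SE 0.15, adjusted p = 0.00142 by edgeR). H2-K1 had a log2FC of -0.79 (SE 0.19, adjusted p = 0.0192 by edgeR) with rIL-13 and of -1.08 (SE 0.15, adjusted p = 0.00189) with rIL-4. Both heavy chains were thus separated by cell type in each treatment without overlap.

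Tapbp had a log2FC of -0.59 (SE 0.16, adjusted p = 0.0296 by edgeR) with rIL-13 and of -0.89 (SE 0.13, adjusted p = 0.00252) with rIL-4. Erap1 was called with rIL-4 (log2FC -0.68, SE 0.16, adjusted p = 0.0211 by edgeR), and with rIL-13 it was at -0.74 with a larger SE of 0.24 (adjusted p = 0.0547). This became a call with DESeq2 (adjusted p = 0.0195), with all 18 libraries fitted (0.00482 by edgeR) and without rIL-13 mouse 6 (0.0174). Tap1 and Tap2 with rIL-13 were also called when all 18 libraries were fitted (adjusted p = 0.0338 and 0.0312 by edgeR). Tap1 and Tap2 were called with rIL-4, at a log2FC of -0.78 (SE 0.21) and -0.59 (SE 0.16), with an adjusted p of 0.0326 and 0.0327 by edgeR. With the mouse as a replicate block, Tap2 with rIL-4 had an adjusted p of 0.0575 by edgeR, and no other call of a member was changed by the block. Tap2 with rIL-4 also lost its call with all genes of any count tested (adjusted p = 0.0533 by edgeR) and under a filter of 10 or more counts per library (0.0806), as did Tapbp with rIL-13 under the latter filter (0.0566). Leaving out rIL-13 mouse 7 ended all 3 calls with rIL-13, and leaving out mouse 5 ended that of Tapbp. With rIL-4, 2 of 6 calls were left when mouse 10 was taken out, H2-K1 and H2-D1, and 4 when mouse 8 (Tap2 and Erap1 lost) or mouse 9 (Tap1 and Tap2 lost) was.

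B2m was not called in either cytokine group. It was at 1201, 622 and 1039.5 CPM in rIL-13 microglia against 1335, 1248 and 1237 CPM in rIL-13 macrophages (log2FC -0.40, SE 0.25, adjusted p = 0.293 by edgeR). It was at 1158, 833 and 976 CPM in rIL-4 microglia against 1322, 1261 and 1236 CPM in rIL-4 macrophages (log2FC -0.34, SE 0.16, adjusted p = 0.193 by edgeR). The levels did not overlap in either case. The log2FC was smaller than with PBS, but the test of the difference in response, given below, did not call B2m. Nlrc5 had a log2FC of -0.60 (SE 0.37, adjusted p = 0.288 by edgeR) with rIL-13 and of -1.10 (SE 0.54, adjusted p = 0.201) with rIL-4. Psmb8 was at -0.29 (SE 0.18) and -0.16 (SE 0.15), and Psmb9 at 0.22 (SE 0.27) and 0.18 (SE 0.20), with adjusted p between 0.283 and 0.619 by edgeR.

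**Figure D2:**
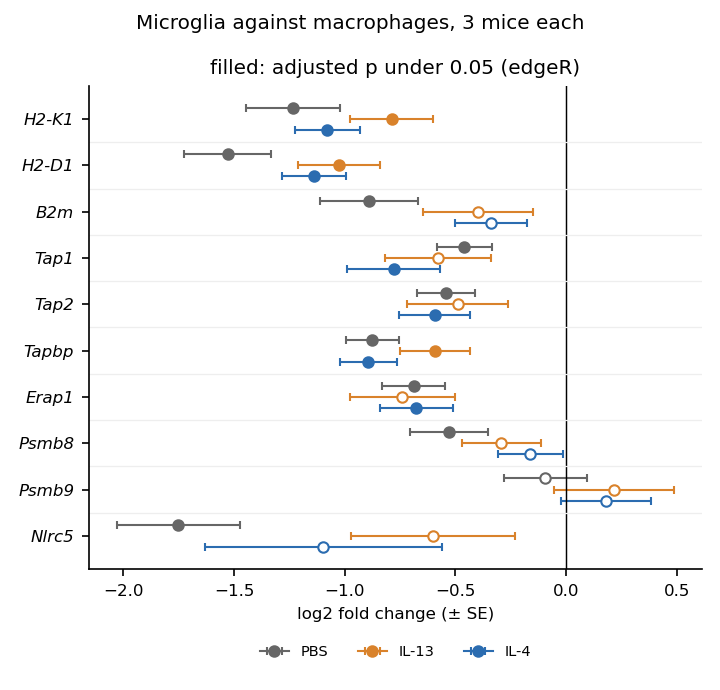
The horizontal axis gives the log2 fold change of microglia against macrophages from edgeR with bars of 1 SE, for the 10 genes in rows and the 3 treatments in colours (3 libraries against 3 each); filled points passed an adjusted p of 0.05. Nearly all points lie left of 0, H2-D1 is at -1.53, -1.03 and -1.14 with PBS, IL-13 and IL-4, and Psmb9 lies on both sides of 0.

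The next comparison asked what the cytokines did to these genes within a cell type. In macrophages, B2m was lower with rIL-4 and was the 1 member of 10 that was called, against 14.0% of the 13606 genes tested in either direction and 7.20% in this direction. With rIL-13, 0 of 10 were called by edgeR, against 4.19%. At an unadjusted p under 0.05 by edgeR there were 2 members with rIL-13 (B2m and Tap1), against 2433 of the 13606 genes. With rIL-4 there were also 2 (B2m and Nlrc5), against 3798 of these genes. The median log2FC of the members was -0.12 with rIL-4 and -0.22 with rIL-13, against 0.02 and 0.00 over all genes. In microglia, 0 of 10 members were called with rIL-4, against 2.22% of the 15566 genes tested. At an unadjusted p under 0.05 there was 1 of 10 (H2-D1), against 2553 of the 15566 genes. With rIL-13, 0 of 10 were called by edgeR, against 0.366%, and 0 had an unadjusted p under 0.05, against 1208 of the 15566 genes. With DESeq2 the counts were 1 in each macrophage comparison, B2m both times, and 0 in microglia.

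B2m was at 1401, 2853 and 2356 CPM in the macrophages of PBS mice 1, 2 and 3, at 1335, 1248 and 1237 CPM with rIL-13 and at 1322, 1261 and 1236 CPM with rIL-4. The 6 cytokine libraries lay close together and below all 3 PBS libraries, of which mouse 1 was the closest to them. The log2FC was -0.79 (SE 0.22, adjusted p = 0.0393 by edgeR) with rIL-4 and -0.78 (SE 0.22, adjusted p = 0.0846) with rIL-13, a 1.73-fold and a 1.72-fold lower level. The call with rIL-4 was lost without PBS mouse 2 or 3 or any 1 of the rIL-4 mice (adjusted p 0.0791 to 0.146 by edgeR), and when only the 6 libraries compared (0.0549) or all 18 (0.0617) were fitted. That with rIL-13 was gained without PBS mouse 1 (adjusted p = 0.0139 by edgeR), with DESeq2 (0.0129) and with all genes of any count tested (0.0318). Neutrophil markers summed to 599 to 1260 CPM in PBS macrophages, to 385 to 2718 CPM with rIL-13 and to 155 to 704 CPM with rIL-4. The microglia marker sum given above was, like B2m, below all PBS macrophage libraries with either cytokine. The part of these markers was not tested. In microglia, the log2FC of B2m was -0.27 (SE 0.24) with rIL-4 and -0.33 (SE 0.24) with rIL-13, neither called.

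No heavy chain was called in these comparisons. In macrophages, H2-D1 had a log2FC of 0.16 (SE 0.17, interval -0.19 to 0.51) with rIL-4 and -0.17 (SE 0.17, interval -0.52 to 0.18) with rIL-13. In microglia, all 3 rIL-4 libraries of H2-D1 (1123, 1024 and 1163 CPM) were above all PBS libraries (756, 962 and 624 CPM), at a log2FC of 0.52 (SE 0.19) that was not called (adjusted p = 0.206 by edgeR). In the same libraries the endothelial marker sum was also above, and the fibroblast and pericyte sum below, that of every PBS library. Of the markers of macrophages from blood, Cd44 (57.8 to 90.7 CPM with PBS and 113 to 195 CPM with rIL-4), Emilin2 (38.1 to 92.8 and 106 to 144 CPM), Ms4a8a (1.54 to 4.44 and 7.54 to 17.8 CPM) and Chil3 were also higher without overlap. The rest of that list, Ccr2 (10.3 to 28.3 and 22.8 to 63.1 CPM), Ly6c2 and Itga4, overlapped between PBS and rIL-4 microglia. The part of these cells was not tested. H2-K1 was at 496, 332 and 390.5 CPM in rIL-13 microglia and at 481, 380.4 and 449 CPM in rIL-4 microglia, overlapping with PBS (log2FC 0.13 and 0.26, SE 0.20 each). In macrophages, H2-K1 was at 681, 705 and 743 CPM with rIL-13 (log2FC -0.27, SE 0.19) and at 955, 964 and 895 CPM with rIL-4 (log2FC 0.13, SE 0.19). The summed heavy chains had log2FC between -0.21 and 0.38 in the 4 comparisons with PBS, with adjusted p between 0.327 and 0.993 by edgeR.

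Since B2m and the heavy chains pair 1 to 1 in the molecule, their ratio was also taken per kilobase in each library. This ratio was chosen after its values had been seen and is given without a test. In PBS microglia, the ratio of B2m to H2-K1 plus H2-D1 was 2.24, 2.08 and 2.85, against 1.70, 1.27 and 1.69 with rIL-13 and 1.62, 1.34 and 1.37 with rIL-4. In macrophages it was 1.36, 1.71 and 1.71 with PBS, 1.11, 1.11 and 1.03 with rIL-13 and 0.829, 0.838 and 0.867 with rIL-4. In both cell types every cytokine library was below every PBS library, and in macrophages every rIL-4 library was also below every rIL-13 library. In each treatment, the ratio was higher in all microglia libraries than in all macrophage libraries.

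Among the transport genes, Tap1 had the most negative log2FC in both cell types, without a call. In microglia it was at 54.8, 53.7 and 54.5 CPM with PBS, at 42.3, 25.9 and 42.1 CPM with rIL-13 and at 46.6, 35.0 and 28.3 CPM with rIL-4. The PBS libraries were above all cytokine libraries, but the spread among the latter was wide, and the log2FC was -0.55 (SE 0.25, adjusted p = 0.647 by edgeR) with rIL-13 and -0.54 (SE 0.25, adjusted p = 0.317) with rIL-4. In macrophages, Tap1 was at 47.4, 58.6 and 60.6 CPM with rIL-13 (log2FC -0.39, SE 0.14, adjusted p = 0.162 by edgeR), below all PBS libraries, and at 61.4, 64.7 and 65.8 CPM with rIL-4 (log2FC -0.19, SE 0.14, adjusted p = 0.404). Tap2 had log2FC of -0.26 and -0.23 in microglia (SE 0.20 each) and of -0.27 and -0.14 in macrophages (SE 0.14 each) with rIL-13 and rIL-4. Only in microglia with rIL-4 did its groups not overlap (33.3 to 36.5 CPM against 38.7 to 43.2 CPM with PBS). Tapbp had log2FC between -0.18 and 0.06 and Erap1 between 0.17 and 0.27 in the 4 comparisons, and none of them was called. In microglia, every rIL-13 library of Erap1 (65.6 to 69.9 CPM) was above every PBS library (53.3 to 65.4 CPM). Erap1 was at 119, 79.1 and 142 CPM in rIL-13 macrophages and at 125, 94.5 and 116 CPM in rIL-4 macrophages, and both ranges took in the PBS macrophage libraries or part of them.

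Nlrc5 was at 13.6, 10.7 and 18.7 CPM in rIL-13 macrophages and at 15.7, 7.26 and 13.6 CPM in rIL-4 macrophages, against 17.1 to 22.7 CPM with PBS. With rIL-4 the groups did not overlap, and the log2FC of -0.71 (SE 0.30) was not called (adjusted p = 0.149 by edgeR). With rIL-13 it was -0.46 (SE 0.30, adjusted p = 0.470 by edgeR). In microglia, Nlrc5 spread over 5.94 to 11.4 CPM with rIL-13 and over 2.32 to 8.05 CPM with rIL-4, with log2FC of 0.64 (SE 0.55) and -0.09 (SE 0.55). The interval for rIL-4 ran from -1.18 to 1.00, so that a change of that size was not detectable in these libraries. Psmb8 was at 147, 154 and 143 CPM in rIL-4 microglia, above all PBS libraries (log2FC 0.23, SE 0.14, adjusted p = 0.471 by edgeR), and its other log2FC against PBS lay between -0.13 and 0.06. Psmb9 had log2FC between -0.03 and 0.34, and its groups overlapped in all 4 comparisons.

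**Figure D3:**
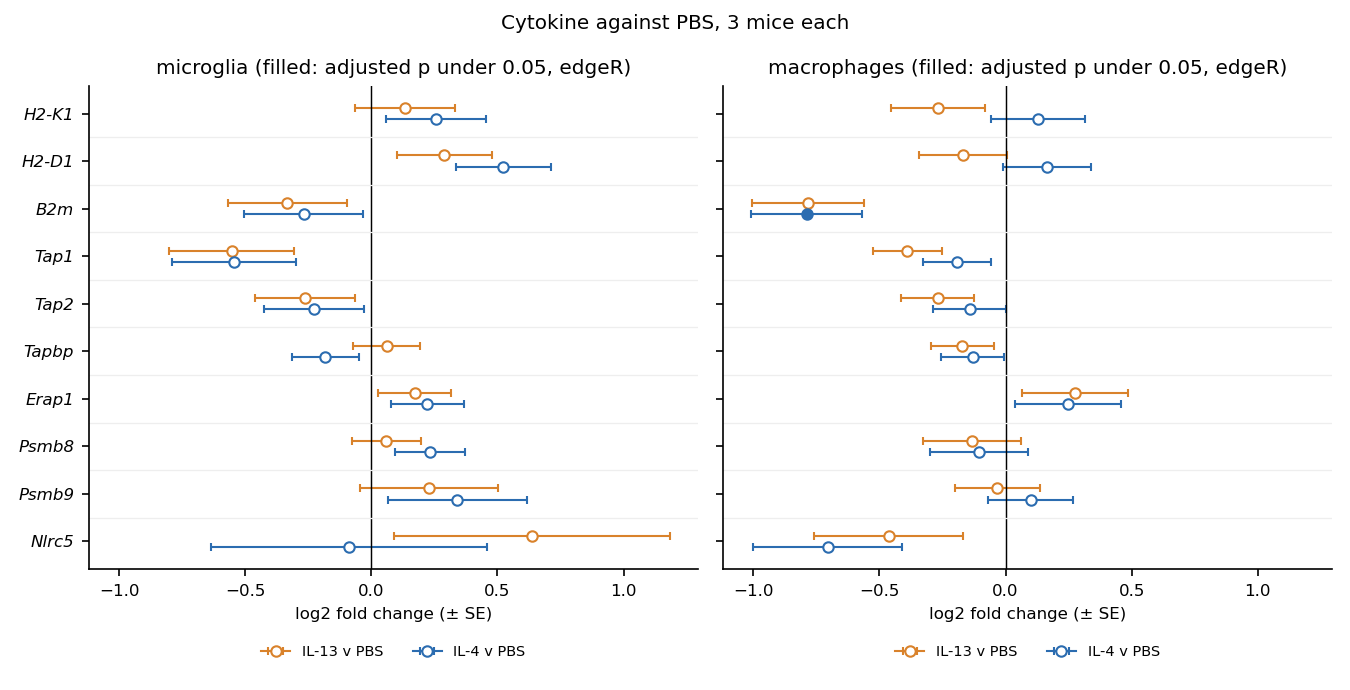
The horizontal axis gives the log2 fold change of each cytokine against PBS from edgeR with bars of 1 SE, in microglia (left) and macrophages (right), for the 10 genes in rows; orange is IL-13, blue is IL-4, 3 libraries against 3, and the only filled point, B2m with IL-4 in macrophages at -0.79, passed an adjusted p of 0.05. B2m and Tap1 lie left of 0 in both panels, and H2-D1 lies right of 0 in microglia at 0.29 and 0.52.

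Between the cytokines, 0 of 10 members were called by edgeR in microglia, against 0.0385% of all genes, and 0 of 10 in macrophages, against 0.250%. At an unadjusted p under 0.05 there were 0 members in either cell type, against 1773 of 15566 genes in microglia and 1513 of 13606 in macrophages. DESeq2 called 0 members. The lowest p in macrophages was that of H2-K1, which was higher in all rIL-4 than in all rIL-13 libraries (log2FC 0.40, SE 0.19, adjusted p = 0.464 by edgeR), followed by H2-D1 (log2FC 0.33, SE 0.17, adjusted p = 0.534). In microglia it was that of Tapbp, at 166, 180.4 and 171 CPM with rIL-4 and at 218, 209 and 193 CPM with rIL-13 (log2FC -0.24, SE 0.13, adjusted p = 0.553 by edgeR). Nlrc5 had the largest difference there, a log2FC of -0.73 with an SE of 0.55. Both cytokine comparisons with PBS used the same PBS libraries, so that their values for a gene are not independent.

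A model of all 18 libraries tested whether the response to a cytokine differed between the cell types. By edgeR, 0 of 10 members were called for rIL-4, against 0.992% of the 16535 genes tested, and 0 of 10 for rIL-13, against 0.0242%. No member had an unadjusted p under 0.05 in either, against 2050 of the 16535 genes for rIL-4 and 964 for rIL-13. DESeq2 called 0 members. The difference for B2m (response in microglia minus response in macrophages) was 0.50 on the log2 scale (SE 0.34, interval -0.17 to 1.17) for rIL-4 and 0.45 (SE 0.34, interval -0.22 to 1.12) for rIL-13. That for H2-D1 was 0.34 (SE 0.26) and 0.46 (SE 0.26), and that for Nlrc5 was 0.60 (SE 0.60) and 1.10 (SE 0.60). The call of B2m in macrophages is therefore not shown to be particular to that cell type.

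The immunoproteasome was also compared with the constitutive subunits whose places it takes. Psmb8 replaces Psmb5, Psmb9 replaces Psmb6 and Psmb10 replaces Psmb7, and ratios of counts per kilobase were tested with a two-sided exact permutation test, which cannot go below p = 0.1 for 3 mice against 3. The ratio of Psmb8 to Psmb5 was 0.590, 0.697 and 0.694 in PBS macrophages, 0.468, 0.552 and 0.591 with rIL-13 and 0.443, 0.495 and 0.486 with rIL-4. With rIL-4 every library was below every PBS library, and the difference on the log2 scale was -0.47 (exact permutation p = 0.1, the smallest possible, and 0.386 after Benjamini-Hochberg adjustment over 27 such tests, those between the cell types included). With rIL-13 it was -0.30 (exact p = 0.2). In microglia the ratio was 0.695, 0.652 and 0.706 with PBS and 0.622, 0.537 and 0.627 with rIL-4, a difference of -0.20 with the same smallest exact p of 0.1 and no overlap. With rIL-13 the microglia ratio was 0.757, 0.454 and 0.714, on both sides of the PBS values. Psmb5 was at 184 to 213 CPM in rIL-4 macrophages against 120.01 to 172 CPM with PBS, whereas Psmb8 overlapped (148, 191 and 168 CPM with rIL-4).

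For Psmb10 the ratio lay the other way. In macrophages, Psmb10 to Psmb7 was 0.622, 0.604 and 0.613 with PBS, 0.833, 0.889 and 0.757 with rIL-13 and 0.906, 0.844 and 0.944 with rIL-4. All cytokine libraries were above the 3 PBS libraries, which differed little from each other, at 0.43 and 0.55 on the log2 scale. The exact permutation p was 0.1 each, the smallest possible, and 0.386 each after the same Benjamini-Hochberg adjustment. In microglia the rIL-4 ratios of 0.969, 0.563 and 0.814 overlapped with those of PBS, at 0.640, 0.533 and 0.440, with an exact p of 0.2. Those of rIL-13, at 0.692, 0.415 and 0.626, overlapped as well (exact permutation p = 0.8). Psmb9 to Psmb6 overlapped between PBS and the cytokines in both cell types (exact p between 0.3 and 0.8), and with PBS it was higher in all microglia, at 0.142 to 0.204, than in all macrophages, at 0.121 to 0.140. Since each mouse gave a library of either kind, which the permutation does not take into account, no p is given for this comparison. The shared stretch with Tap1 bears on the counts of Psmb9.

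**Figure D4:**
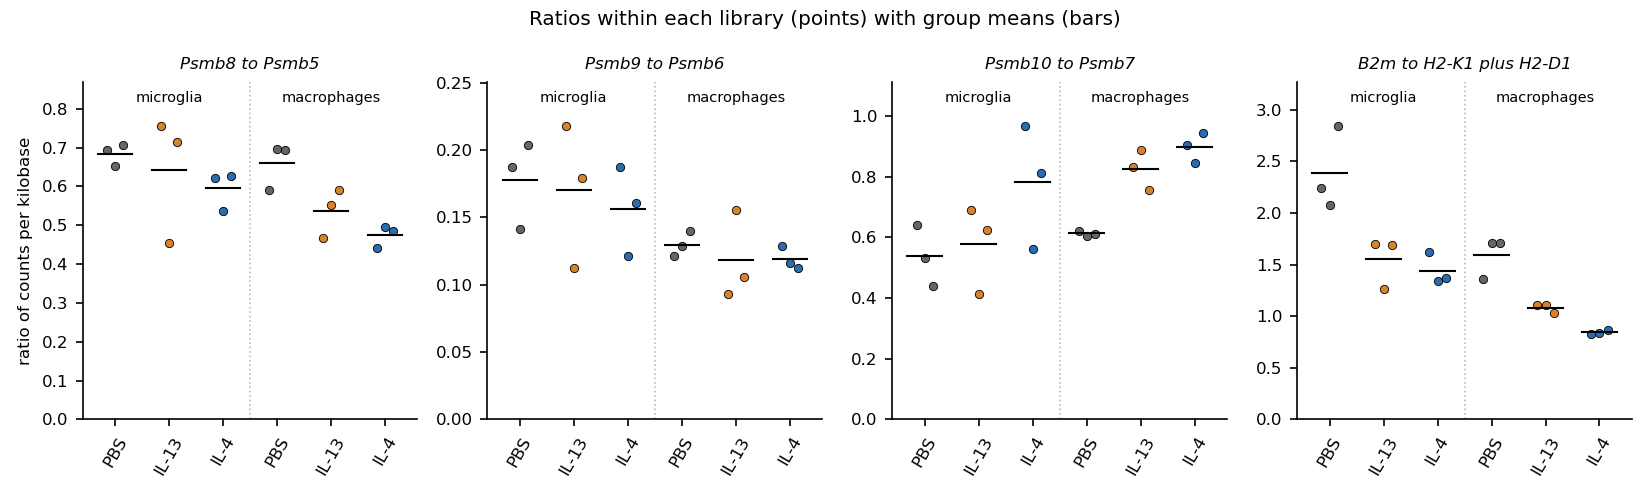
Each panel plots 1 ratio of counts per kilobase of transcript on a linear vertical axis from 0, for the 6 groups; points are libraries in mouse order and bars are group means. Psmb8 to Psmb5 in macrophages goes from a mean of 0.660 with PBS to 0.475 with IL-4, Psmb10 to Psmb7 goes from 0.613 to 0.898, and B2m to the heavy chains goes from 1.59 to 0.845.

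The other genes of the pathway were taken from 5 lists. The 17 other class I heavy chains and relatives held 13 tested genes. In macrophages, 2 were higher (against 6.77% of all genes with rIL-4 and 2.53% with rIL-13) and 1 lower (against 7.20% and 1.66%) with rIL-4, and the counts with rIL-13 were the same (median log2FC of the list -0.38 and -0.39). The genes called higher do not present peptides to T cells. Fcgrt, the heavy chain of the receptor that recycles IgG and albumin, was at 19.8 to 26.9 CPM in PBS macrophages, at 79.0 to 182 CPM with rIL-13 and at 83.4 to 129 CPM with rIL-4. Its log2FC was 2.41 (SE 0.29, adjusted p = 0.00174 by edgeR) and 2.19 (SE 0.28, adjusted p = 0.000941). In microglia it was 1.25 with rIL-13 and 1.17 with rIL-4 (SE 0.16 each, adjusted p = 0.0123 and 0.00795 by edgeR). The endothelial and fibroblast markers, whose sums are given above for each treatment, moved in the same microglia libraries, and their part was not tested. The call in microglia was lost with rIL-13 without any 1 of the PBS mice, and with rIL-4 without PBS mouse 3.

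Hfe, which encodes a class I-like regulator of iron uptake, was at 61.0 to 69.2 CPM in PBS macrophages, at 187 to 213 CPM with rIL-13 (log2FC 1.63, SE 0.12) and at 217 to 241 CPM with rIL-4 (log2FC 1.82, SE 0.12). The adjusted p was 6.35e-05 and 1.87e-05 by edgeR. In microglia, Hfe was called with rIL-4 (log2FC 1.48, SE 0.27, adjusted p = 0.0268 by edgeR), and the call was lost without PBS mouse 1, 2 or 3 or rIL-4 mouse 8 or 9. Both proteins bind B2m. Cd1d1, which presents lipids to NKT cells and also pairs with B2m, was the gene called lower in macrophages. It was at 11.3 to 17.3 CPM with PBS, at 4.83 to 6.81 CPM with rIL-13 and at 5.35 to 5.51 CPM with rIL-4 (log2FC -1.34 and -1.36, adjusted p = 0.00839 and 0.00284 by edgeR). Neither call was made with all 18 libraries in a single model (adjusted p = 0.957 and 0.752 by edgeR). In microglia, 2 of 13 genes of this list were called with rIL-4 and 1 with rIL-13, all higher (median log2FC 0.22 and 0.12), against 1.33% and 0.283% of all genes called higher.

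Of the 7 other loading and transport genes, 4 were higher with rIL-4 in macrophages and 0 lower, with a median log2FC of 0.57, and 2 were higher with rIL-13 (median 0.49). Of all genes, 6.77% were called higher with rIL-4 and 2.53% with rIL-13. With rIL-4 these were the oxidoreductase Pdia3 (log2FC 0.57, SE 0.14), the chaperones Calr (0.69, SE 0.15) and Hspa5 (0.84, SE 0.13), and Sec61a1 (0.81, SE 0.13), a pore of the endoplasmic reticulum. Pdia3, Irf8 and Nfkb1 lie outside the rule for named genes in this comparison and were chosen after their values were seen. The same holds between the cell types for Calr, Canx, Sec61a1, Cd1d1, Mr1, H2-Q10, H2-M3, Irf8 and Ifnar2 with PBS, for Lnpep, Canx, Fcgrt, Irf2, Ifngr1 and Psmb10 with rIL-13 and for Ifnar2 with rIL-4. Sec61a1 was at 335 to 375 CPM in PBS macrophages and at 587 to 702 CPM with rIL-4. The adjusted p of the 4 genes lay between 0.00251 and 0.0222 by edgeR. With rIL-13 the calls were Sec61a1 (0.62, SE 0.13) and Hspa5 (0.59, SE 0.13). These proteins serve the folding of many secreted proteins.

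Some of these calls rested on few mice. Calr with rIL-4 was lost without any 1 of the PBS mice or rIL-4 mouse 10, Pdia3 without any 1 of the PBS mice or rIL-4 mouse 9 or 10, and Sec61a1 with rIL-13 without any 1 of the PBS mice or rIL-13 mouse 7. Hspa5 with rIL-13 was lost without any 1 of the PBS mice or rIL-13 mouse 5 or 7, with all 18 libraries in a single model (adjusted p = 0.197 by edgeR), with only the 6 libraries compared (0.0586) and with all genes of any count tested (0.0508). In microglia, 0 of 7 genes were called with either cytokine, against 2.22% of all genes with rIL-4 and 0.366% with rIL-13. The response to rIL-4 differed between the cell types for Pdia3, Calr and Sec61a1 by edgeR (adjusted p = 0.0315, 0.0282 and 0.0320), against 0.992% of all genes. All 3 calls were lost with all genes of any count tested, and 2 or 3 of them without any 1 of the 6 mice. Between the cell types, 6 of the 7 genes were lower in microglia with rIL-4 (median log2FC -1.24), 6 with rIL-13 (-0.84) and 5 with PBS (-0.42), and none was higher, against 9.97%, 9.46% and 16.3% of all genes called lower in microglia. With rIL-13, 1 of the 6 calls was left without mouse 7 (Hspa5) and 2 without mouse 5 (Hspa5 and Lnpep). With PBS, 2 of the 5 were left without mouse 3, where Calr, Canx and Sec61a1 were lost, and 3 without mouse 1 or with all 18 libraries in a single model, where Canx and Sec61a1 were lost. Hspa5 had the lowest log2FC in this list with rIL-4, at -1.69 (SE 0.23, adjusted p = 0.00182 by edgeR).

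Of the 8 other proteasome genes, 0 were called by edgeR against PBS in either cell type, with medians between 0.12 and 0.47. Of all genes, 2.22% and 0.366% were called in microglia with rIL-4 and rIL-13, and 14.0% and 4.19% in macrophages. With PBS, 2 of the 8 were lower in microglia, against 16.3% of all genes, the constitutive subunits Psmb5 (log2FC -0.57, SE 0.14) and Psmb6 (-0.53, SE 0.13). Both calls were lost without PBS mouse 3, and that of Psmb5 also without PBS mouse 2. With rIL-13, 1 of the 8 was lower in microglia, against 9.46% of all genes. This was Psmb10 (log2FC -0.66, SE 0.20, adjusted p = 0.0482 by edgeR), a call lost without any 1 of the rIL-13 mice, with the replicate block, with all genes of any count and under the filter of 10 or more counts.

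Of the 16 regulators, 0 were called in microglia against PBS, and 0 in macrophages with rIL-13. The shares of all genes were 2.22% (rIL-4) and 0.366% (rIL-13) in microglia and 4.19% in macrophages with rIL-13. In macrophages with rIL-4, 2 were called lower and 1 higher, against 7.20% and 6.77% of all genes. Irf8 (log2FC -0.59, SE 0.13, adjusted p = 0.0160 by edgeR), an interferon regulatory factor of myeloid cells, was among the lower ones, and Nfkb1 (log2FC 1.00, SE 0.23, adjusted p = 0.0184 by edgeR), which encodes a subunit of NF-kB, was higher. The call of Irf8 was lost without PBS mouse 1 or 2 or rIL-4 mouse 10, and that of Nfkb1 without PBS mouse 2 or 3 or rIL-4 mouse 9. Irf8 was also not called with all 18 libraries in a single model (adjusted p = 0.344 by edgeR).

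Between the cell types, 3 of the 16 regulators were lower in PBS microglia and 0 higher, against 16.3% and 24.5% of all genes: Stat6, Ciita and Irf8, whose call was lost without PBS mouse 2 or 3, in the fit of all 18 libraries and under the filter of 10 or more counts. Stat6, which IL-4 and IL-13 signal through, was at 123 to 149.5 CPM in PBS microglia and at 248 to 278 CPM in PBS macrophages (log2FC -0.94, SE 0.13, adjusted p = 0.000464 by edgeR). Ciita, the coactivator of class II genes and a relative of Nlrc5, was at 0 to 0.874 CPM in PBS microglia and at 5.01 to 8.82 CPM in PBS macrophages. With rIL-13, 2 regulators were lower in microglia and 1 higher, against 9.46% and 17.2% of all genes. The lower ones were Irf2 (log2FC -0.85, SE 0.25, adjusted p = 0.0384 by edgeR), a call lost without rIL-13 mouse 6 or 7, with the replicate block and under the filter of 10 or more counts, and Stat6 (log2FC -0.82, SE 0.19, adjusted p = 0.0167 by edgeR), a call lost without rIL-13 mouse 5 or 7. Rfx5, part of the complex on the X box, was higher in rIL-13 microglia, at 11.5 to 15.6 CPM, than in rIL-13 macrophages, at 1.95 to 3.27 CPM (log2FC 2.27, SE 0.36, adjusted p = 0.00371 by edgeR), and the call was lost without rIL-13 mouse 7. With rIL-4, 1 of the 16 regulators was lower in microglia and 0 higher, against 9.97% and 13.4% of all genes. That call was lost without any 1 of the rIL-4 mice.

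Of the interferon receptors and feedback genes, 5 of 7 passed the filter on low counts. Against PBS, 1 of the 5 was called higher in microglia with either cytokine, against 1.33% of all genes with rIL-4 and 0.283% with rIL-13, and 2 were in macrophages, against 6.77% and 2.53%. None was called lower. Socs1, a feedback inhibitor of cytokine receptors, was higher in all 4 comparisons with PBS. It was at 1.03 to 1.83 CPM in PBS microglia, at 8.63 to 9.68 CPM with rIL-13 (log2FC 2.70, SE 0.36) and at 17.2 to 25.9 CPM with rIL-4 (log2FC 3.90, SE 0.38). The groups did not overlap. In macrophages its log2FC was 2.62 (SE 0.45) with rIL-13 and 3.55 (SE 0.47) with rIL-4, and the 4 adjusted p lay between 0.00102 and 0.0148 by edgeR. The call with rIL-13 was lost in microglia without PBS mouse 1 or 3 or rIL-13 mouse 7 or with only the 6 libraries compared (adjusted p = 0.0942 by edgeR), and in macrophages without PBS mouse 1 or 2. Ifngr1, a chain of the interferon-gamma receptor, was higher in macrophages with rIL-4 (log2FC 1.07, SE 0.16) and rIL-13 (0.98, SE 0.16), the latter not without PBS mouse 1 or 3. Ifng itself had counts in a single library, a rIL-4 macrophage library at 0.0238 CPM.

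**Figure D5:**
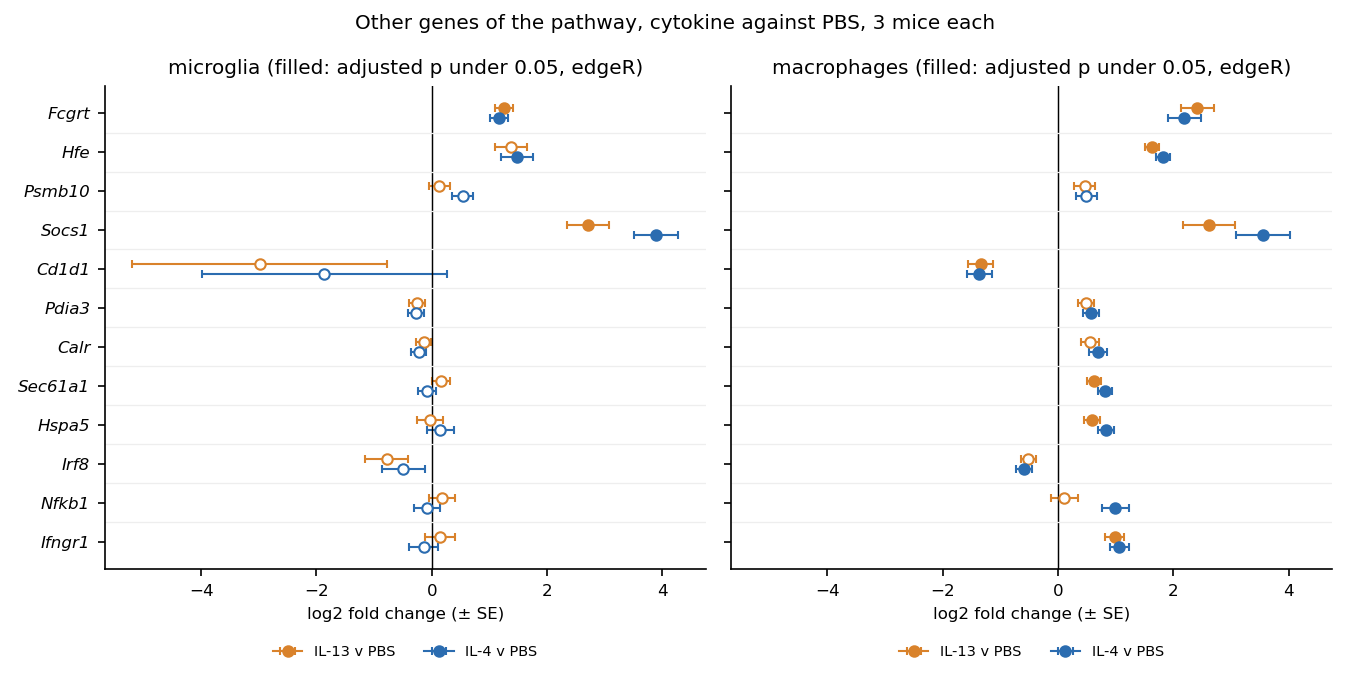
The horizontal axis gives the log2 fold change of each cytokine against PBS from edgeR with bars of 1 SE, in microglia (left) and macrophages (right); rows are the listed genes reported here that were past an adjusted p of 0.05 in at least 1 of these 4 comparisons (filled points), and Psmb10 for the proteasome. Socs1 and Fcgrt lie far right of 0 in both panels, whereas Pdia3, Calr and Sec61a1 are at 0.57 to 0.81 with IL-4 in macrophages and close to 0 or below in microglia.

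Between the cell types, 4 of the 13 heavy chain relatives tested were lower and 2 higher in microglia with PBS, 1 and 2 with rIL-13 and 0 and 1 with rIL-4. Of all genes, 16.3%, 9.46% and 9.97% were called lower and 24.5%, 17.2% and 13.4% higher in microglia. Without PBS mouse 3, 0 of the 4 lower calls (Cd1d1, H2-M3, H2-Q10 and H2-T23) and 1 of the 2 higher ones were left, Fcgrt, with Mr1 lost. Without PBS mouse 1 or 2, 2 lower calls and 1 higher call were left. The fit of all 18 libraries left 1 of each. Without rIL-13 mouse 7, 0 of the 3 calls with rIL-13 were left, and without mouse 5 that of Fcgrt was lost. Fcgrt was at 108 to 120.2 CPM in PBS microglia against 19.8 to 26.9 CPM in PBS macrophages (log2FC 2.20, SE 0.16, adjusted p = 2.03e-05 by edgeR), opposite in direction to H2-K1 and H2-D1. H2-T23, a nonclassical heavy chain that shows leader peptides of other class I molecules to NK cells, was at 109 to 140.3 CPM in PBS microglia and at 149 to 215 CPM in PBS macrophages (log2FC -0.63, SE 0.16, adjusted p = 0.0116 by edgeR), a call lost without PBS mouse 2 or 3. Of the 5 interferon receptor and feedback genes, 2 were lower in microglia with PBS, 1 with rIL-13 and 2 with rIL-4, and none was higher. Ifnar1, a chain of the receptor for type I interferons, was lower in PBS microglia (log2FC -0.64, SE 0.15, adjusted p = 0.0089 by edgeR), a call lost without PBS mouse 3. Ifnar2, the other chain, was lower with PBS (log2FC -0.34, adjusted p = 0.0417 by edgeR) and rIL-4 (log2FC -0.49, adjusted p = 0.0497). Its call was lost with PBS without mouse 2 or 3 and with rIL-4 without any 1 mouse, and in both with the replicate block. Ifngr1 was lower in rIL-4 microglia than in rIL-4 macrophages (log2FC -1.34, SE 0.21, adjusted p = 0.00321 by edgeR) and with rIL-13 (log2FC -0.96, SE 0.24, adjusted p = 0.0243), the latter not without rIL-13 mouse 5 or 7. Among the listed genes, 0 were called between rIL-4 and rIL-13 in either cell type, against 0.0385% of all genes in microglia and 0.250% in macrophages.

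Within a cell type, the members did not vary as 1 block. For each member, the log2 CPM was centred on the mean of its own cell type, and the 10 were averaged in each of the 18 libraries. The correlation with that average, which contains the member itself, was highest for B2m (Pearson's r = 0.81) and H2-K1 (0.77), between 0.43 and 0.58 for 7 members, and -0.12 for Erap1. Of the 16525 genes, those most like the average were Npc2 (r = 0.82), a carrier of cholesterol in the lysosome, H2-T22 (0.75), a nonclassical heavy chain that shares sequence with other class I genes, Mafg (0.73), Dnajc14 (0.72) and Neurl3 (0.71). These values describe 18 libraries that share treatments and amplification, and carry no test.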

How the data were processed

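RNA of sorted microglia and macrophages was amplified by SMART-seq2 and read as 76-base pairs, without strand or molecular identifiers. The expected counts per gene were deposited by the authors, who per the submitters' processing notes used STAR 2.5.3a and RSEM 1.3.0 with GRCm38; the annotation release is not given in the sources used here. Amplification copies are counted, so the counts overstate the number of molecules.

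The expected counts were rounded and tested with edgeR 4.0.16 (TMM, filterByExpr, quasi-likelihood F test, R 4.3.3), with Benjamini-Hochberg adjustment over all genes tested and a threshold of 0.05. Treatments were compared within the 9 libraries of a cell type, cell types within the 6 libraries of a treatment, and differences in response over all 18 libraries. SEs came from the F statistic, and intervals are 2 SE on either side. Levels per kilobase used the principal GENCODE transcript. DESeq2 1.42.0, other filters and scalings, other sets of libraries, a replicate block and leaving out each mouse were the alternatives. The fits were also run on simulated counts with the same spread for all genes, which does not bear on the calls given here. Members and lists were chosen with earlier results of these data known. All 10 members were named, and of the lists at most the 8 called genes of lowest adjusted p per comparison, with Psmb5, Psmb6 and Psmb7; exceptions are stated. A gene of the regulator list is not reported here, although counts over that list include it. Each mouse gave both cell types, which pairs them, and the deviations of its libraries from their group means correlated at 0.0139 to 0.0848. Libraries of a group differed beyond counting noise (chi-square per degree of freedom 40.7 to 345).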

Additional observations from a re-analysis of the deposited data

Results flagged for a closer look

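For 3 genes of the list of loading and transport genes that are not members, the test of the difference between the cell types in the response to rIL-4 was passed by edgeR. The response in microglia minus that in macrophages was -0.873 on the log2 scale for Pdia3, -0.938 for Calr and -0.925 for Sec61a1 (adjusted p = 0.0315, 0.0282 and 0.0320). Pdia3 was at 1012 to 1210.1 CPM in PBS macrophages and at 1587 to 1662 CPM with rIL-4, against 946 to 1081 CPM and 723 to 931 CPM in microglia. All 3 calls were lost when all genes with any count were tested (adjusted p 0.0686 to 0.107). Calr and Sec61a1 lost the call without any 1 of the 6 mice, and Pdia3 without any but rIL-4 mouse 9.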

How the results depend on the processing

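The count of members called moved by over 1.5 times in 5 comparisons. For rIL-4 against PBS in macrophages it went from 1 to 0 when only the 6 libraries compared or all 18 were fitted, and lay between 0 and 1 without 1 mouse. For rIL-13 against PBS in macrophages it went from 0 to 1 with all genes of any count and with DESeq2, and lay between 0 and 1 without 1 mouse. Between the cell types, leaving out 1 mouse gave counts of 5 to 9 in PBS mice, of 0 to 4 in rIL-13 mice and of 2 to 4 in rIL-4 mice, and the fit of all 18 libraries gave 6 in rIL-13 mice. With a replicate block for the mouse, which pairs the cell types, the counts were 9, 3 and 5; Tap2 with rIL-4 lost its call (log2FC -0.59, adjusted p = 0.0575 by edgeR), and no other member's call changed.

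Values close to 0 changed sign without 1 mouse. Against PBS in macrophages, the log2FC without 1 mouse ran for rIL-4 from -0.000173 to 0.313 for H2-D1, from -0.0618 to 0.343 for H2-K1, from -0.306 to 0.0367 for Psmb8 and from -0.0599 to 0.199 for Psmb9, and for rIL-13 from -0.340 to 0.00981 for Psmb8 and from -0.198 to 0.0621 for Psmb9. In microglia it ran for rIL-13 from -0.0369 to 0.307 for H2-K1, from -0.0136 to 0.163 for Psmb8, from -0.0894 to 0.418 for Psmb9 and from -0.0166 to 0.152 for Tapbp, and for rIL-4 from -0.436 to 0.284 for Nlrc5. Between the cell types, Psmb9 ran from -0.295 to 0.0428 with PBS and from -0.157 to 0.501 with rIL-13. The log2 ratios with rIL-13 in microglia ran from -0.0616 to 0.308 for Psmb10 to Psmb7, from -0.265 to 0.105 for Psmb8 to Psmb5 and from -0.305 to 0.173 for Psmb9 to Psmb6, and Psmb8 to Psmb5 between the cell types with PBS from -0.0238 to 0.0956. The cause of these shifts was not tested. Of the members' values under all alternatives, 1143 kept direction and call, 32 lost a call, 8 gained one and 49 changed sign, 45 of these without 1 mouse. With 3 mice a group, small changes were not detectable.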
